A study of Homo sapiens with 12 samples.

Results

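The genes described here are 10 of the 58302 genes in the count files: DNMT1, UHRF1, HELLS, CDCA7, CDCA7L, DNMT3A, DNMT3B, TET1, TET2 and TET3. They write, maintain or oxidize 5-methylcytosine in DNA. They were chosen by function with the levels of all 6 groups already known, so their levels and differences are given as a description, and no test on them is offered. All 10 averaged 20 or more counts and were among the 13454 genes tested.

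RNA was sequenced from H1 cells, a human embryonic stem cell line, that had been turned into neural progenitor cells (NPCs). WT cells were compared with dKO cells, in which the catalytic domain of UTX (KDM6A) and of JMJD3 (KDM6B), the demethylases of histone H3 lysine 27, had been deleted by CRISPR. The dKO cells came from puromycin-selected clones. JMJD3 was targeted first, its antibiotic cassette was removed with Cre, and UTX was targeted second, so that the genotype and the handling of the mutant line cannot be told apart. NPCs were grown in N2B27 medium with bFGF and EGF and were taken at passage 2 and passage 4. The labels give a passage only for the passage 4 samples, and passage 2 comes from the study's methods. Day 28 cells (WT-D28 and dKO-D28) came from passage 2 NPCs moved to N2B27 with GDNF, BDNF and cAMP and without the mitogens. Each of the 6 groups had 2 samples (n = 2), which the labels do not tie to separate cultures, so the spread between them may be technical. The comparisons ask which of these genes differ between the genotypes at each stage, and which change with passage or differentiation.

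Total counts ran from 756942 in 1 of the WT NPC samples at passage 2 to 10601172 in 1 of the WT-D28 samples, and the 4 passage 2 samples were the shallowest. The 2 dKO-D28 samples stood apart from each other: a chi-square of their counts was 11.3 times its degrees of freedom, against 1.57 to 2.72 times in the other 5 groups. Counts of the targeted genes span the whole gene, not only the deleted part. KDM6A was at 60.3 and 53.5 CPM (counts scaled to a common library size) in WT NPCs, 39.1 and 38.3 in dKO NPCs, 49.8 and 53.3 in WT NPC-P4, 31.4 and 27.3 in dKO NPC-P4, 43.7 and 48.4 in WT-D28 and 58.4 and 31.9 in dKO-D28. The dKO-D28 samples thus lay on both sides of the WT-D28 samples. KDM6B was at 154.0 and 181 CPM in WT NPCs, 152 and 157 in dKO NPCs, 115 and 126 in WT NPC-P4, 185 and 181 in dKO NPC-P4, 202.0 and 186 in WT-D28 and 144 and 150 in dKO-D28. The summed CPM of 8 neural progenitor markers was 3457 to 7569 in all samples, with HES5 at 0 in both dKO NPC groups. VIM and NES made up most of this sum, so it hides differences of single markers. PAX6 was at 11.7 and 11.5 CPM in WT-D28 and 186.5 and 350.6 in dKO-D28 cells. FABP7 was at 1861 and 1700 CPM in WT NPC-P4 and 85.8 and 78.0 in dKO NPC-P4. Of the 7 markers tested, 2 were higher and 5 lower in dKO than in WT cells at day 28. At passage 4, 1 was higher and 6 lower. That of 10 neuron markers was 4175 to 5189 in WT NPC-P4 and WT-D28 and 628 to 1393 in the other 8 samples. That of 9 mesenchymal and neural crest markers was 1527 to 1941 in the dKO NPCs of both passages and 238 to 695 in the other 8 samples. Their part in the differences below was not tested. Within a bulk sample, fewer cells of a type and less RNA per cell cannot be told apart.

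Methylation of cytosine in CpG pairs is set up by the de novo methyltransferases DNMT3A and DNMT3B and copied after each round of DNA replication by DNMT1. UHRF1 brings DNMT1 to newly replicated, half-methylated DNA, and HELLS, a chromatin remodelling ATPase, works with CDCA7 in opening nucleosomal DNA for maintenance. CDCA7L is the paralog of CDCA7. TET1, TET2 and TET3 oxidize 5-methylcytosine, a first step towards its removal. In the neural lineage, DNMT3B is known as the form of early embryonic cells, while DNMT3A, TET2 and TET3 are well expressed in neurons.

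The maintenance genes DNMT1, UHRF1, HELLS and CDCA7 were all lower in WT-D28 cells than in WT NPCs (below), and their promoters are shown because they share a motif. RefSeq windows from 250 bases before to 50 bases after each start (GRCh38.p14) were found for 10 of 10 genes, 21 windows in all. Both strands were searched for the E2F motif, written as TTTGGCGC, TTTCCCGC, TTTCGCGC or TTTGCCGC, which E2F factors bind in genes of DNA replication. The capitals mark the matches. UHRF1 had several windows, of which the one with the lowest coordinates is given, and its window chr19:4910117-4910416 held no match.
DNMT1, chr19:10194904-10195203, minus strand: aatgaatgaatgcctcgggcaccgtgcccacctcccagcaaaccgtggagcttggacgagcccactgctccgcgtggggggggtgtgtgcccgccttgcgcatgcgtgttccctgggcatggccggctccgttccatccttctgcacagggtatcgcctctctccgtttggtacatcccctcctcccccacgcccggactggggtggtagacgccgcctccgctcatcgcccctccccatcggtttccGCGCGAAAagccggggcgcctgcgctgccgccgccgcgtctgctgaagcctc
UHRF1, chr19:4909251-4909550, plus strand: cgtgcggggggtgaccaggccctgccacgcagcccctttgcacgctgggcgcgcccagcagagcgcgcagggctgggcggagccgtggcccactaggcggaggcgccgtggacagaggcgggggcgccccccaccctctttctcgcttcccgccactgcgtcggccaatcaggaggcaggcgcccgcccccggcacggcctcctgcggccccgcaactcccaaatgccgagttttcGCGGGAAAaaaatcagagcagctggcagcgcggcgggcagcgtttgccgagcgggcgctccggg
HELLS, chr10:94545538-94545837, plus strand: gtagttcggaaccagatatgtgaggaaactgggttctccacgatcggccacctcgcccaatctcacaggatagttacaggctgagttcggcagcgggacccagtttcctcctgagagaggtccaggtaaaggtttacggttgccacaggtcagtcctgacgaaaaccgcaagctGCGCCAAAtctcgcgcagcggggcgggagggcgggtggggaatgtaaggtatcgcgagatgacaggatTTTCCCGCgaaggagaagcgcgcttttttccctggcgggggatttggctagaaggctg
CDCA7, chr2:173354622-173354921, plus strand: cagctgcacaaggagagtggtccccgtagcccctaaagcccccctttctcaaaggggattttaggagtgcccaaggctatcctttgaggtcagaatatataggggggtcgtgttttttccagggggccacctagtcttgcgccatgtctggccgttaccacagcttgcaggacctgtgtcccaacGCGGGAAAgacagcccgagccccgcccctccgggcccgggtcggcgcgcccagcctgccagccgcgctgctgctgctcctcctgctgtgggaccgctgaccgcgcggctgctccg

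An E2F match lay in 5 of the 21 windows. All of them are of these 4 genes because the genes were picked for display by their match. Some windows of the same gene overlap, and nothing is read from the distance to the shares given below. In DNMT1 it spanned the start, from base -2 to base 6 (base 1 is the start). In UHRF1 it ran from base -14 to -7, with another match from -160 to -153 of a second window (chr19:4909894-4910193). HELLS had 1 match from -76 to -69 and another from -8 to -1, and CDCA7 had 1 from -65 to -58. None of the windows of CDCA7L, DNMT3A, DNMT3B, TET1, TET2 and TET3 held these letters, and of these CDCA7L, DNMT3B and TET1 were lower in WT-D28 cells as well, CDCA7L by more than any of the 4 genes with a match. Of all 35116 promoter windows 3.31% held the motif, of the 14998 windows of tested genes 4.65%, and of the 30 windows of the list of S phase and mitosis genes used below 33.3%. The CCAAT box (CCAAT, both strands) was in 7 of the 21 windows, or 33.3%, against 34.6% of all windows. The cell cycle homology element (TTTGAA, both strands) was in 2, or 9.52%, against 15.2%. The windows also differed in CpG pairs themselves. The DNMT3B window (chr20:32779602-32779901) held 3 and the 3 TET1 windows 6 to 11, while the windows of DNMT1, UHRF1, HELLS, CDCA7 and CDCA7L held 20 to 46. The sole DNMT3B window lay inside the gene as annotated (chr20:32762385-32809359, plus strand). The bases around the outermost annotated start of DNMT3B were thus not searched for CpG pairs or motifs. The same held for DNMT1, UHRF1 and HELLS, whose windows also lay inside the gene as annotated. The median count of CpG pairs was 14 over all windows and 25 over those of tested genes.

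The level of each gene is given as CPM of the sample's whole library after TMM scaling (edgeR). Differences are log2 fold changes from edgeR with their standard error (SE). A gene was called when its unadjusted p was under 0.05 and its fold change above 2. For the 10 genes the call, and any count at an unadjusted p under 0.05, only sorts the values and is not read as a test.

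DNMT1 (ENSG00000130816, chr19:10133342-10231286, minus strand) copies methylation onto the new strand. It was at 308 and 257 CPM in WT NPCs and at 255 and 237 in dKO NPCs. At passage 4 it was at 139 and 134 CPM in WT and 154.0 and 176 in dKO NPCs. In WT-D28 cells it was at 141 and 136 CPM and in dKO-D28 cells at 193 and 281. Both WT groups after passage 2 thus held lower levels than any other sample, and the dKO-D28 samples, although far apart from each other, were both above WT-D28. By group mean, WT NPCs came first (283 ± 35.9 CPM, SD, n = 2) and WT NPC-P4 last (136 ± 3.61). WT-D28 and WT NPC-P4 did not differ beyond their spread, nor did dKO NPCs and dKO-D28 cells. The log2 fold change of dKO over WT was -0.19 (SE 0.16) at passage 2, 0.28 (SE 0.15) at passage 4 and 0.78 (SE 0.14) at day 28. The last value was 0.49 without dKO-D28 replicate 2 and 1.04 without dKO-D28 replicate 1.

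UHRF1 (ENSG00000276043, chr19:4903080-4962154, plus strand), the reader of half-methylated DNA, was at 71.9 and 137 CPM in WT NPCs and at 134 and 140 in dKO NPCs. The lower WT value rests on 56 counts in the shallowest library. At passage 4 UHRF1 was at 74.6 and 69.0 CPM in WT and 80.7 and 73.2 in dKO NPCs. At day 28 it was at 31.4 and 30.0 CPM in WT and 75.6 and 102.0 in dKO cells. WT-D28 was the only group that separated from the next group in the order of means, as the other 5 formed a chain of overlapping neighbours. The log2 fold change of dKO over WT was 0.33 (SE 0.23) at passage 2, 0.11 (SE 0.20) at passage 4 and 1.54 (SE 0.20) at day 28. The passage 2 value rests on the unlike WT pair, as it was 0.00 without WT NPC replicate 1 and 0.93 without WT NPC replicate 2.

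HELLS (ENSG00000119969, chr10:94545329-94613905, plus strand) was at 75.7 and 64.5 CPM in WT NPCs and 67.2 and 68.2 in dKO NPCs. WT NPC-P4 held 20.5 and 26.7 CPM and dKO NPC-P4 43.4 and 56.3. WT-D28 cells held 15.6 and 14.3 CPM and dKO-D28 cells 54.4 and 74.5. The genotypes overlapped at passage 2 and were apart at the later stages, with every dKO sample above every WT sample. WT-D28 was lowest, WT NPC-P4 next, and the other 4 groups overlapped as neighbours. The log2 fold change of dKO over WT was -0.03 (SE 0.21), 1.07 (SE 0.19) and 2.12 (SE 0.18) at passage 2, passage 4 and day 28. The passage 4 value was 0.90 without WT NPC-P4 replicate 1 and 0.88 without dKO NPC-P4 replicate 2, and the gene was then not called.

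CDCA7 (ENSG00000144354, chr2:173354820-173368997, plus strand) was at 53.9 and 45.4 CPM in WT NPCs and at 36.2 and 29.9 in dKO NPCs. At passage 4 it was at 46.2 and 50.01 CPM in WT and 25.1 and 24.1 in dKO NPCs. WT-D28 cells were at 21.3 and 25.1 CPM and dKO-D28 cells at 35.1 and 52.8. CDCA7 was thus lower in dKO than in WT NPCs at both passages and higher in dKO cells at day 28, with no overlap of the genotypes at any stage. On the log2 scale dKO differed from WT by -0.57 (SE 0.25), -0.96 (SE 0.19) and 0.93 (SE 0.18). The passage 4 value was -1.02, and called, without WT NPC-P4 replicate 1. The day 28 value was 0.60 without dKO-D28 replicate 2 and 1.20 without dKO-D28 replicate 1. It was 1.04 without WT-D28 replicate 2, and in both settings above 1 the gene was called, as it was with total counts as library size (1.02).

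CDCA7L (ENSG00000164649, chr7:21900899-21945903, minus strand) had the widest range of the 10 genes as a ratio of its highest to its lowest level. It was at 100.1 and 92.4 CPM in WT NPCs and 56.9 and 57.1 in dKO NPCs. At passage 4 it was at 95.7 and 101 CPM in WT and 47.5 and 46.4 in dKO NPCs. In WT-D28 cells it was down to 5.21 and 5.56 CPM, from 44 and 56 counts, while dKO-D28 cells held 91.1 and 86.5. The order of the genotypes turned at day 28, as for CDCA7. WT NPC-P4 and WT NPCs overlapped, and each of the other 4 groups was apart from its neighbours. The log2 fold change of dKO over WT was -0.75 (SE 0.15), -1.06 (SE 0.12) and 4.04 (SE 0.14), the last a 16.4-fold difference. With total counts as library size the passage 4 value was -0.90 and the gene was not called. Of the exonic bases of CDCA7L, 21.4% (833 bases) are shared with DNAH11 on the opposite strand. How the authors' counting treated strand is not given in the sources used here. DNAH11 itself was at 4.74 and 4.27 CPM in WT-D28 and 46.0 and 42.6 in dKO-D28 cells, so reads of the 2 genes may not be fully told apart.

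**Figure D1:**
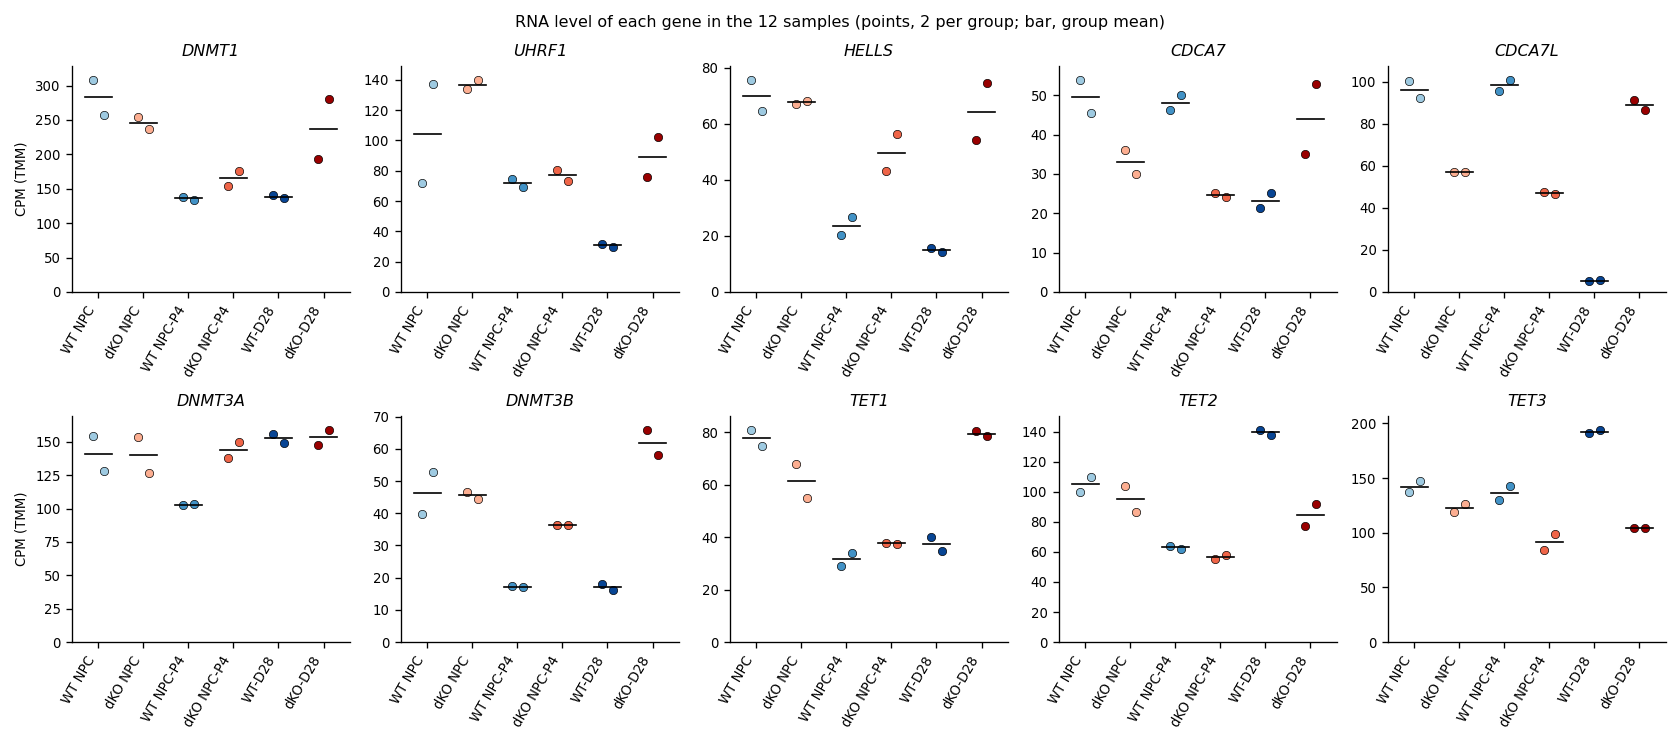
Level of each of the 10 genes in CPM (y axis, from 0, with its own scale per gene) in the 6 groups (x axis); points are the 2 samples of a group and the bar is their mean. UHRF1, HELLS, CDCA7L and DNMT3B lie lowest in WT-D28 cells or in WT-D28 and WT NPC-P4 cells, while TET2 and TET3 are highest in WT-D28 cells.

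The de novo methyltransferases did not move together. DNMT3A (ENSG00000119772, chr2:25227855-25342590, minus strand) was at 154.0 and 128 CPM in WT NPCs and 154 and 127 in dKO NPCs. WT NPC-P4 was at 102 and 103 CPM and dKO NPC-P4 at 138 and 150. WT-D28 cells were at 156 and 149 CPM and dKO-D28 cells at 148 and 159. Only WT NPC-P4 was apart from the other groups, on the low side. Its dKO over WT log2 fold changes were 0.00 (SE 0.14), 0.49 (SE 0.12) and 0.01 (SE 0.11) at passage 2, passage 4 and day 28.

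DNMT3B (ENSG00000088305, chr20:32762385-32809359, plus strand) was at 39.8 and 52.8 CPM in WT NPCs and 46.5 and 44.5 in dKO NPCs. At passage 4 it was at 17.5 and 17.0 CPM in WT and 36.2 and 36.2 in dKO NPCs. At day 28 it was at 18.0 and 16.2 CPM in WT and 65.8 and 58.0 in dKO cells, so that dKO-D28 was the highest and WT-D28 the lowest group. WT-D28 and WT NPC-P4 overlapped, as did the passage 2 groups. For DNMT3B the difference of dKO and WT was on the log2 scale -0.06 (SE 0.19), 1.08 (SE 0.17) and 1.86 (SE 0.15).

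Levels of different genes were compared per kilobase of the canonical transcript. The ratio of DNMT3A to DNMT3B on this scale was 1.78 and 1.12 in WT NPCs, 1.52 and 1.31 in dKO NPCs, 2.69 and 2.80 in WT NPC-P4, 1.75 and 1.91 in dKO NPC-P4, 3.99 and 4.23 in WT-D28 and 1.03 and 1.26 in dKO-D28 cells. The ratio was highest in WT-D28 cells, where DNMT3B was low and DNMT3A was not. In dKO-D28 cells it lay within or just under the range of the passage 2 NPCs.

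TET1 (ENSG00000138336, chr10:68560337-68694487, plus strand) was at 80.9 and 74.8 CPM in WT NPCs and 68.0 and 55.0 in dKO NPCs. At passage 4 it was at 29.0 and 34.0 CPM in WT and 37.8 and 37.4 in dKO NPCs. At day 28 it was at 40.0 and 34.7 CPM in WT and 80.4 and 78.7 in dKO cells. TET1 was low in both passage 4 groups and in WT-D28 cells, while dKO-D28 overlapped WT NPCs at the top. Between dKO and WT the log2 fold change was -0.34 (SE 0.17), 0.25 (SE 0.15) and 1.10 (SE 0.13), and the last was 0.98, and not called, without WT-D28 replicate 2.

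TET2 (ENSG00000168769, chr4:105145875-105279816, plus strand) went the other way from TET1 at day 28, but like TET1 was lower at passage 4 than at passage 2. It was at 100.1 and 110.0 CPM in WT NPCs, 104 and 86.3 in dKO NPCs, 64.0 and 61.9 in WT NPC-P4 and 55.3 and 58.2 in dKO NPC-P4. Day 28 levels were 141 and 138 CPM in WT and 77.3 and 92.0 in dKO cells. Between dKO and WT the log2 fold change was -0.15 (SE 0.15), -0.14 (SE 0.13) and -0.72 (SE 0.12). WT-D28 was the highest group and both passage 4 groups the lowest. TET3 (ENSG00000187605, chr2:73984910-74108176, plus strand) was at 137 and 147 CPM in WT NPCs, 119 and 127 in dKO NPCs, 130.4 and 143 in WT NPC-P4 and 84.6 and 99.0 in dKO NPC-P4. Day 28 levels were 191 and 194 CPM in WT and 104 and 104 in dKO cells. TET3 was lower in every dKO sample than in every WT sample of the same stage, with log2 fold changes of -0.22 (SE 0.13), -0.57 (SE 0.11) and -0.88 (SE 0.11). None of these passed 2-fold.

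The share of each TET gene in their summed CPM per kilobase shows the same turn. TET1 made up 27.8% and 24.7% of the sum in WT NPCs and 25.4% and 22.7% in dKO NPCs. It made up 14.7% and 16.2% in WT NPC-P4 and 23.5% and 21.4% in dKO NPC-P4. At day 28 its share was 11.98% and 10.6% in WT and 33.4% and 31.0% in dKO cells. The WT and dKO shares overlapped at passage 2 only. TET3 held 52.7% and 54.2% in WT NPC-P4 and 45.7% and 47.2% in WT-D28, against 34.5% and 32.7% in dKO-D28. The sum itself was 34.8 and 34.1 CPM per kilobase in WT-D28, 25.1 and 26.4 in dKO-D28 and 16.7 to 21.8 at passage 4.

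**Figure D2:**
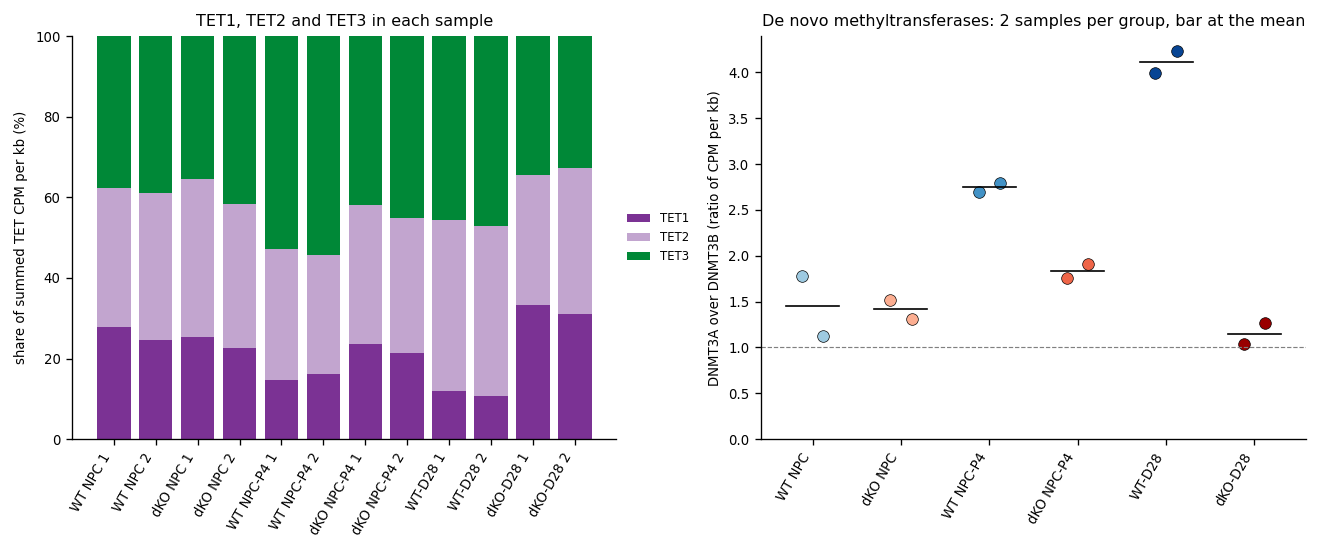
Left, share of TET1, TET2 and TET3 in their summed CPM per kilobase (y axis, percent) in each of the 12 samples (x axis); right, ratio of DNMT3A to DNMT3B in CPM per kilobase (y axis) in the 2 samples of each group (points; the bar is their mean, the dashed line equal levels). The TET1 share is 11.98% and 10.6% in WT-D28 and 33.4% and 31.0% in dKO-D28, and the ratio is 3.99 and 4.23 in WT-D28 and 1.03 and 1.26 in dKO-D28.

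Set side by side per kilobase, DNMT1 was the highest of the 10 genes in WT NPCs, at 53.6 ± 6.81 CPM per kilobase (SD, n = 2), followed by CDCA7L at 33.4 ± 1.90 and UHRF1 at 26.8 ± 11.8. In WT-D28 cells DNMT1 was at 26.3 ± 0.55, and DNMT3A (16.2 ± 0.54), TET3 (16.0 ± 0.16) and TET2 (14.6 ± 0.23) came next, with CDCA7L last at 1.87 ± 0.09. In dKO-D28 cells DNMT1 (45.0 ± 11.7), CDCA7L (30.8 ± 1.14), UHRF1 (22.8 ± 4.79) and HELLS (20.6 ± 4.54) led, as DNMT1, CDCA7L, UHRF1 and HELLS did in WT NPCs, where HELLS was at 22.4 ± 2.54.

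Counted by comparison, at passage 2 edgeR called 0 of the 10 genes between dKO and WT NPCs, DESeq2 called 0, and 2 (CDCA7 and CDCA7L) had an unadjusted p under 0.05. Of all genes tested, 2.59% were called higher and 1.83% lower. The median log2 fold change of the 10 genes was -0.17. At passage 4, HELLS and DNMT3B were called higher and CDCA7L lower in dKO NPCs, against 11.1% and 11.2% of all genes, with a median of 0.18. At day 28, UHRF1, HELLS, CDCA7L, DNMT3B and TET1 were called higher in dKO cells and none lower, against 12.4% and 11.7%, with a median of 1.01. The median of all genes tested was within 0.04 of 0 in each of these comparisons. Because the genes were chosen with these levels known, nothing is read from the distance between the counts and the background.

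From WT NPCs to WT-D28 cells 7 genes were called lower: DNMT1 (log2 fold change -1.03, SE 0.15), UHRF1 (-1.83, SE 0.23), HELLS (-2.22, SE 0.21), CDCA7 (-1.08, SE 0.22), CDCA7L (-4.15, SE 0.16), DNMT3B (-1.48, SE 0.18) and TET1 (-1.06, SE 0.16). DNMT1, CDCA7 and TET1 were close to 2-fold, and 1 library or another processing could end their call. DNMT1 was at -0.90 without WT NPC replicate 1 and -0.99 without WT-D28 replicate 2, CDCA7 at -0.97 without WT NPC replicate 1 and -0.96 without WT-D28 replicate 1, and TET1 at -0.94 without WT-D28 replicate 2. With a GC content and gene length correction, a step the study used, TET1 was at -0.93, and where all 12 samples had to hold 10 or more counts DNMT1 was at -0.96 and TET1 just short of 2-fold, so neither was called. UHRF1 remained called but moved to -1.24 without WT NPC replicate 2 and to -2.17 without WT NPC replicate 1. None was called higher, although TET2 (0.40, SE 0.13) and TET3 (0.43, SE 0.12) were above 0. Of all genes 12.9% were called higher and 11.5% lower. This comparison shares the WT-D28 samples with that of the genotypes at day 28. From dKO NPCs to dKO-D28 cells edgeR called 0 of the 10 genes and DESeq2 0, with 4 (UHRF1, CDCA7L, DNMT3B and TET1) at an unadjusted p under 0.05, against 4.01% of all genes called higher and 3.14% lower. UHRF1 was at -0.62 (SE 0.20), CDCA7L at 0.64 (SE 0.13), DNMT3B at 0.44 (SE 0.16) and TET1 at 0.37 (SE 0.15). The median of the 10 genes was -1.07 in WT and 0.04 in dKO cells.

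The difference between these changes, the interaction of genotype and differentiation, was called for 6 genes, all with a smaller fall or a gain in dKO cells. These were UHRF1 (1.21, SE 0.30), HELLS (2.15, SE 0.28), CDCA7 (1.50, SE 0.30), CDCA7L (4.79, SE 0.20), DNMT3B (1.92, SE 0.24) and TET1 (1.43, SE 0.22). Of all genes 12.03% were called higher and 11.1% lower in this term. UHRF1 was at 0.61, and not called, without WT NPC replicate 2. DNMT1 was at 0.97 (SE 0.21), just under the threshold, and was called without dKO-D28 replicate 1 (1.22), WT NPC replicate 2 (1.11) or dKO NPC replicate 1 (1.03). It was also called with the GC content and gene length correction (1.22) and with total counts as library size (1.10).

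**Figure D3:**
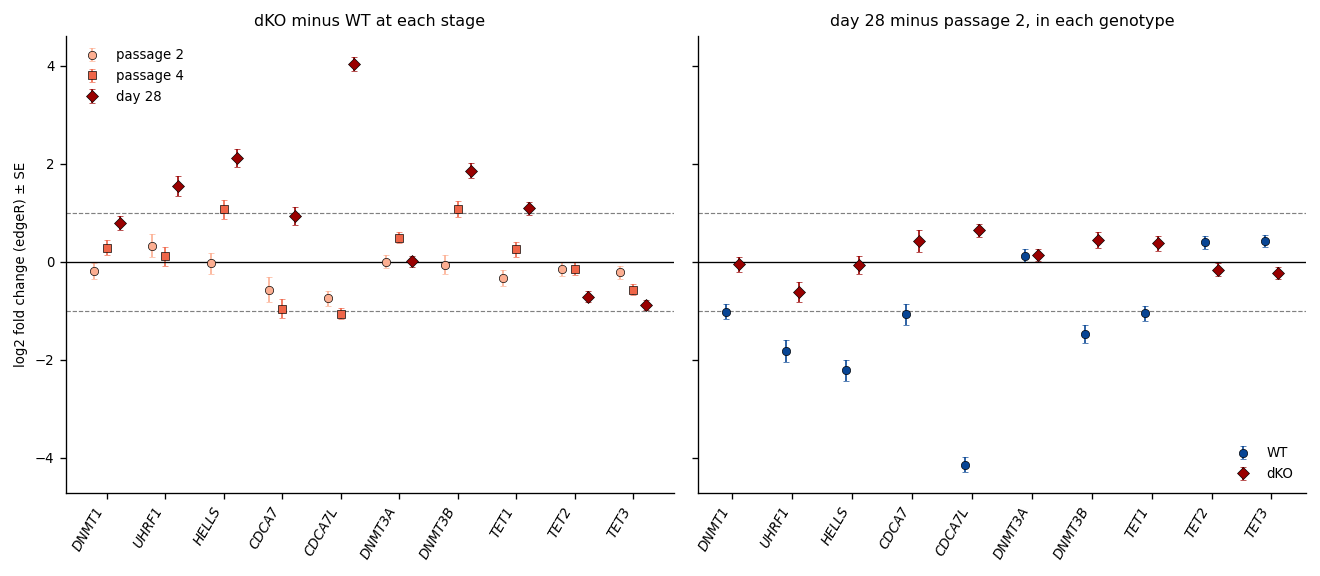
log2 fold change from edgeR with its SE (y axis) of the 10 genes (x axis); left, dKO over WT at passage 2, passage 4 and day 28, and right, day 28 over passage 2 in WT and in dKO cells, with dashed lines at 2-fold. CDCA7L is at 4.04 on the left at day 28 and at -4.15 (WT) and 0.64 (dKO) on the right, and DNMT3A is within 0.5 of 0 throughout.

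Several genes were also lower at passage 4 than at passage 2. From passage 2 to passage 4, DNMT1 (-1.05, SE 0.16), HELLS (-1.55, SE 0.22), DNMT3B (-1.47, SE 0.20) and TET1 (-1.30, SE 0.17) were called lower in WT NPCs and none higher, against 9.49% of all genes called lower and 10.3% higher. DNMT1 was at -0.93, and not called, without WT NPC replicate 1. UHRF1 was at -0.61 (SE 0.22), and at -0.01 without WT NPC replicate 2. TET2 was at -0.75 (SE 0.14) and DNMT3A at -0.45 (SE 0.13), neither of them called. CDCA7, CDCA7L and TET3 were within 0.08 of 0. Cell type markers moved beside these differences. In WT NPCs, 7 of the 9 neuron markers tested and 4 of the 5 astrocyte markers were called higher at passage 4, and the summed CPM of the neuron markers went from 1393 and 1212 to 4612 and 5189. The 2 pluripotency genes tested, LIN28A and L1TD1, were called lower. In dKO NPCs the neuron sum was 1094 and 1020 CPM at passage 2 and 880 and 908 at passage 4. The part of these markers was not tested. In dKO NPCs edgeR called 0 of the 10 genes and DESeq2 0, while 6 (DNMT1, UHRF1, HELLS, TET1, TET2 and TET3) had an unadjusted p under 0.05 and all of those were below 0, from -0.42 for TET3 to -0.83 for UHRF1. Of all genes 4.61% were called higher and 5.22% lower. The interaction of genotype and passage was called for HELLS (1.10, SE 0.29) and DNMT3B (1.13, SE 0.26), against 9.72% of all genes called higher and 9.57% lower. DNMT3B was at 0.88, and not called, without WT NPC replicate 2. HELLS was at 1.00 without WT NPC replicate 1, at 0.94 without WT NPC-P4 replicate 1 and at 0.91 without dKO NPC-P4 replicate 2, and in these 3 settings it was not called.

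Genes of DNA replication and mitosis moved beside several of the 10 genes. The summed CPM of 28 such genes was 5344 and 5113 in WT NPCs, 5029 and 4997 in dKO NPCs, 3770 and 4063 in WT NPC-P4, 3344 and 3380 in dKO NPC-P4, 1345 and 1401 in WT-D28 and 4066 and 5524 in dKO-D28 cells. edgeR called 26 of the 28 lower in WT-D28 cells than in WT NPCs, against 11.5% of all genes. It called 27 of the 28 higher in dKO-D28 than in WT-D28 cells, against 12.4%. At passage 4 the list was split between the genotypes. edgeR called 0 of the 28 higher in dKO NPCs, as did DESeq2, and 1 lower (MKI67), against 11.1% and 11.2% of all genes. At an unadjusted p under 0.05 the fold change was above 0 for 5 genes and below 0 for 10. The following genes were picked after their values were seen. All 5 above 0 were genes of DNA replication: the helicase subunits MCM2, MCM3 and MCM7, the loading factor CDC6 and TYMS, which makes thymidylate. MCM3 was at 0.95 (SE 0.16, edgeR adjusted p = 0.000236) and TYMS at 0.91 (SE 0.12, edgeR adjusted p = 1.19e-05). Among those below 0 were the mitotic genes MKI67, TOP2A, CDK1 and CENPF, but also RRM1 and CCNE2 of S phase. Over the 12 samples, which share their libraries and fall into 6 groups, the Pearson correlation of log2 CPM with this sum was 0.94 for CDCA7L, 0.91 for UHRF1, 0.85 for HELLS, 0.72 for DNMT1 and CDCA7, 0.69 for DNMT3B, 0.59 for TET1, -0.18 for DNMT3A, -0.41 for TET2 and -0.59 for TET3.

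The genes kept different pace with the list. Per 1000 CPM of it, HELLS was at 14.2 and 12.6 in WT NPCs, 11.6 and 10.2 in WT-D28 and 13.4 and 13.5 in dKO-D28 cells, but at 5.43 and 6.56 in WT NPC-P4 against 12.96 and 16.7 in dKO NPC-P4. The passage 4 values depend on which genes of the list weigh most. MKI67, TOP2A and CENPF weighed most in WT NPC-P4 and were lower in dKO NPC-P4. Of its replication genes, MCM3 (log2 fold change 0.95) and TYMS (0.91) were higher there by nearly as much as HELLS (1.07). MCM4 (-0.30) and MCM6 (-0.32) were below 0. DNMT1 was at 57.7 and 50.3 in WT NPCs, 104 and 97.4 in WT-D28 and 47.6 and 50.8 in dKO-D28 cells, so it was higher relative to the list in WT-D28. CDCA7L was at 18.7 and 18.1 in WT NPCs and at 3.87 and 3.97 in WT-D28, against 22.4 and 15.7 in dKO-D28 cells. UHRF1 was at 23.3 and 21.4 in WT-D28 and 18.6 and 18.5 in dKO-D28. In the passage 2 NPCs it was at 13.4 and 26.8 in WT and 26.6 and 28.0 in dKO. The 13.4 came from the shallowest library, and the day 28 values lay below the other passage 2 samples.

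**Figure D4:**
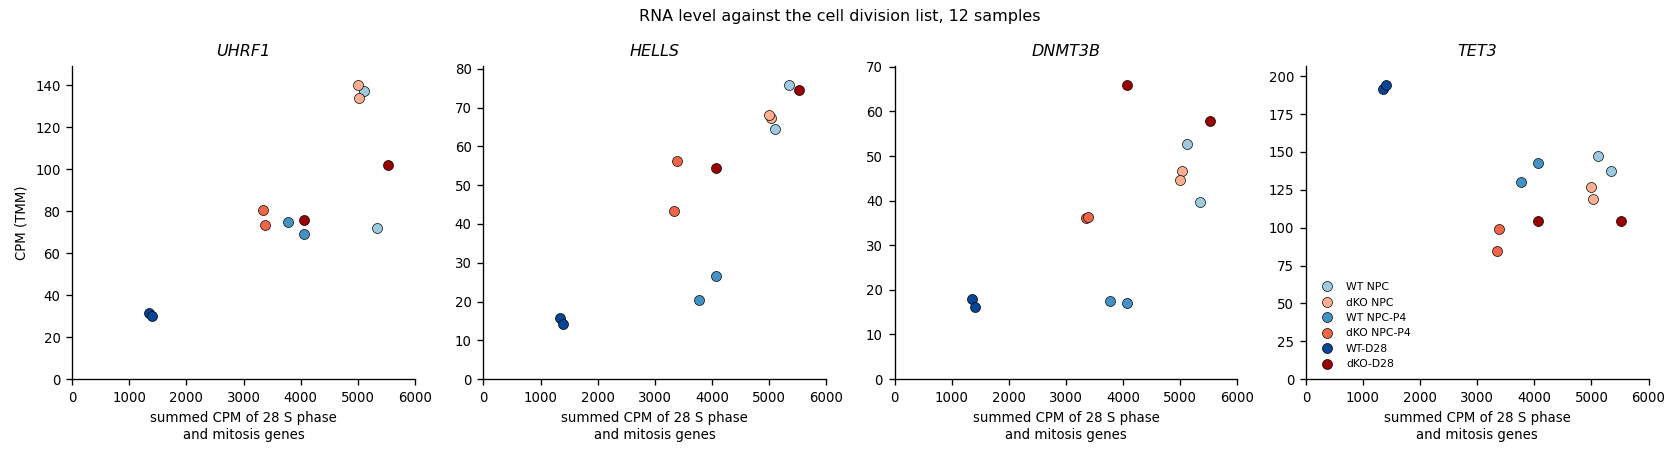
Level of UHRF1, HELLS, DNMT3B and TET3 in CPM (y axis, from 0) against the summed CPM of 28 S phase and mitosis genes (x axis) in the 12 samples, coloured by group. The WT-D28 samples lie at 1345 and 1401 on the x axis, and at passage 4, where members of the list differ in both directions, it is 3344 and 3380 in dKO and 3770 and 4063 in WT NPCs, with HELLS and DNMT3B higher in dKO.

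Of 52 further genes of the methylation pathway in 5 lists, 49 were tested, and for these the edgeR test is given with p adjusted over all genes (Benjamini-Hochberg). In dKO-D28 against WT-D28 cells 6 (12.2%) were called higher and 1 (2.04%) lower, against 12.4% and 11.7% of all genes, so the share called higher was close to that of the background. All but 1 of the 7 also had an adjusted p under 0.05. The median log2 fold change was 0.15, and 36 of the 49 were above 0. Among 11 maintenance partners, 4 of the 10 tested were called higher by edgeR and 3 by DESeq2, and PCLAF, a PCNA-binding factor, missed the threshold after adjustment (1.18, SE 0.50, edgeR adjusted p = 0.0631). PCNA, the replication clamp, which is also in the S phase list, was at 77.6 and 83.6 CPM in WT-D28 and 169 and 217 in dKO-D28 cells (log2 fold change 1.27, SE 0.13, adjusted p = 3.75e-07). LIG1, the replicative DNA ligase, was at 57.2 and 62.5 against 116 and 167 CPM (1.25, SE 0.16, adjusted p = 6.46e-06). Both are genes of DNA replication. Among 16 genes of oxidation and base excision 1 rose, GADD45A, a stress-response gene linked to demethylation, from 15.6 and 12.4 to 48.7 and 31.2 CPM (1.51, SE 0.19, adjusted p = 4.55e-06). Of the same list 1 fell, CXXC4, the CXXC partner of TET2, from 150 and 149 to 71.6 and 38.8 CPM (-1.45, SE 0.24, adjusted p = 0.000399). Of 8 genes of the S-adenosylmethionine cycle 1 rose, MAT2B, the regulatory subunit of methionine adenosyltransferase, from 29.6 and 32.0 to 83.5 and 71.8 CPM (1.33, SE 0.17, adjusted p = 4.78e-06). Of the 5 tested de novo partners edgeR called 0 and DESeq2 0, with 2 at an unadjusted p under 0.05, and of the 10 CpG readers edgeR called 0 and DESeq2 0, with 6.

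At passage 4, 4 of the 49 (8.16%) were called higher and 2 (4.08%) lower in dKO NPCs, below the 11.1% and 11.2% of all genes, and all 6 were in the oxidation and base excision list. GADD45B was at 1 count in each WT NPC-P4 sample and at 185 and 125 counts in dKO NPC-P4, a ratio of 127 in TMM-scaled counts with a 95% exact counting interval from 35.0 to 1060 (edgeR adjusted p = 1.11e-08). The interval covers counting error only. GADD45A was at 36.0 and 35.3 CPM in WT and 100.3 and 96.8 in dKO NPC-P4 (log2 fold change 1.47, SE 0.18, edgeR adjusted p = 5.22e-06). GADD45G, of the same family, moved the other way, from 43.6 and 27.7 to 8.30 and 4.59 CPM (-2.44, SE 0.29, edgeR adjusted p = 4.53e-06). IDH1, the cytosolic isocitrate dehydrogenase that makes the TET cofactor 2-oxoglutarate, fell from 232 and 228 to 95.0 and 88.9 CPM (-1.32, SE 0.17, edgeR adjusted p = 2.05e-05). In the maintenance, de novo, reader and S-adenosylmethionine lists edgeR and DESeq2 called 0 genes at passage 4, with 3, 1, 7 and 4 at an unadjusted p under 0.05. At passage 2 GADD45B was called higher in dKO NPCs (1.02, SE 0.34, edgeR adjusted p = 0.143), the sole call among the 49, and it missed the threshold after adjustment.

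From WT NPCs to WT-D28 cells 0 of the 49 were called higher and 6 (12.2%) lower, the latter close to the 11.5% of all genes. The maintenance partners PCNA (-1.51, SE 0.14, edgeR adjusted p = 2.62e-07) and PCLAF (-1.77, SE 0.65, edgeR adjusted p = 0.0394), fell, the latter with 4 to 32 counts per sample in these 2 groups. GADD45A fell (-1.22, SE 0.25, edgeR adjusted p = 0.000782), as did MAT2B (-1.74, SE 0.19, edgeR adjusted p = 2.22e-06) and AHCY, the hydrolase of S-adenosylhomocysteine (-1.05, SE 0.17, edgeR adjusted p = 0.000106). In dKO cells edgeR and DESeq2 called 0 of the 49 between dKO-D28 and dKO NPCs.

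Germline genes that are known to be silenced by promoter methylation were at low counts. Of 21 such genes 1, TEX15, reached the mean needed for the test, and the summed CPM of all 21 was 8.07 to 39.9 in every sample. TEX15 was at 25.1 and 36.5 CPM in WT and 1.61 and 5.07 in dKO NPC-P4 (log2 fold change -3.21, SE 0.36, edgeR adjusted p = 2.66e-06), and made up most of the sum in WT NPC-P4. Pluripotency genes were followed as well, because DNMT3B and TET1 are high in embryonic stem cells. The summed CPM of 9 such genes was 95.3 to 132 in passage 2 NPCs, 1.27 and 1.65 in WT NPC-P4, 41.5 and 45.4 in dKO NPC-P4, 0.70 and 1.07 in WT-D28 and 80.1 and 106 in dKO-D28 cells. The sum rests on LIN28A, DPPA4 and L1TD1: LIN28A alone was at 86.0 and 82.8 CPM in WT NPCs, DPPA2, TDGF1, ZFP42 and UTF1 stayed under 1 CPM in every sample, and 2 of the 9 were tested. NANOG was at 0 in all samples. POU5F1 and the maintenance partner EHMT2 were also listed at 0, but so were TUBB and FLOT1, neighbours on chromosome 6 that nearly every cell uses, so a listed 0 there is not read as absence. DNMT3L and DPPA3, of the de novo list, were at 0 in all samples. The part of the pluripotency genes in the levels of DNMT3B and TET1 was not tested.

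For 4 of the genes, the tested genes with the most similar pattern over the 12 samples were looked up by Pearson correlation of log2(CPM + 1). For UHRF1 these were TK1 (r = 0.97), DDIAS (0.96) and XRCC6 (0.96), for CDCA7 FRMD4B (0.93), SEMA7A (0.93) and COL22A1 (0.93), for DNMT3B DDI2 (0.98), PLEKHG3 (0.97) and DDX11 (0.97), and for TET3 CHST1 (0.97), ARNT2 (0.96) and CDC42BPA (0.96). TK1 is a thymidine kinase of S phase. The gene most like CDCA7L, looked at after its values were seen, was DNAH11 (0.98), with which it shares exonic bases. Among the 10 genes, HELLS and DNMT3B were at 0.91, DNMT1 and TET1 at 0.90 and DNMT1 and HELLS at 0.88, while TET2 and TET3 were at 0.76 with each other and between -0.63 and 0.32 with UHRF1, HELLS, CDCA7, CDCA7L, DNMT3B, DNMT1 and TET1.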

How the data were processed

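RNA from 12 samples was extracted with TRIzol and made into TruSeq libraries by the authors, who sequenced them on a NextSeq 500, mapped reads to hg38 with HISAT2 2.0.4, sorted them with SAMtools 1.3.1 and counted them per Ensembl gene with htseq-count 0.6.0. The deposited values are raw counts, unnormalized and unfiltered. The annotation release is not given in the sources used here. Symbols, coordinates and lengths came from GENCODE v44, which held 98.7% of the IDs and 99.8% of the counts. Whether the counting used strand is likewise not given, so overlapping genes on opposite strands are uncertain.

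The 13454 genes that averaged 20 or more counts were fitted with edgeR 4.0.16 (R 4.3.3, quasi-likelihood, TMM) over all 6 groups, and were called at an unadjusted p under 0.05 and a fold change above 2, after the study's own thresholds. Adjusted p is Benjamini-Hochberg over all genes tested. The scripts were tested on simulated data. With 2 samples against 2, an exact permutation test cannot go below p = 0.333, so none was used for single values, and p-values measure only the spread between these samples. The members and gene lists were chosen with earlier results of these data known. All 10 members are described in every group. From each pathway list, up to the 2 largest called rises and 2 largest called falls in dKO against WT at day 28 and at passage 4, and in WT-D28 against WT NPCs, are named. The S phase, neural progenitor, neuron, mesenchymal and pluripotency lists are given as counts or sums, with some single genes. The astrocyte list is given as a count. Its sum was 328 and 372 CPM in WT NPC-P4 and 611 and 654 in dKO NPC-P4. The oligodendrocyte, microglia and endothelial lists are not described above. The endothelial sum, mostly KDR, was 1.98 and 3.81 CPM in WT NPC-P4 and 88.55 and 92.25 in dKO NPC-P4. Alternatives were DESeq2 1.42.0, total counts as library size, 2 other filters, adjusted p, only the samples compared, a GC content and gene length correction, the replicate block and leaving out each sample. The replicate numbers did not pair the samples: the correlation of same-numbered deviations was -0.06 to 0.19 over 15 pairs of groups. Promoters are RefSeq windows of GRCh38.p14.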

Additional observations from a re-analysis of the deposited data

Results flagged for a closer look

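The results here are differences between the genotypes in how a gene changed, from the edgeR interaction term on the log2 scale, given as dKO minus WT. No outlier check was possible with 2 samples in a group. From passage 2 to day 28 the difference was 1.21 for UHRF1, 2.15 for HELLS, 1.50 for CDCA7, 4.79 for CDCA7L, 1.92 for DNMT3B and 1.43 for TET1. For these 6 genes it is a description, since they were chosen with the levels known. Among the listed pathway genes it was 1.34 for PCNA (edgeR adjusted p = 5.69e-05), 1.21 for LIG1 (edgeR adjusted p = 0.00157), 1.18 for GADD45A (edgeR adjusted p = 0.011), 1.70 for MAT2B (edgeR adjusted p = 0.000133) and -1.01 for CXXC4 (edgeR adjusted p = 0.0634, which misses the threshold).

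From passage 2 to passage 4 the difference was 1.10 for HELLS and 1.13 for DNMT3B, again as a description. It was 1.15 for GADD45A (edgeR adjusted p = 0.0156), -1.15 for IDH1 (edgeR adjusted p = 0.0044), -2.24 for GADD45G (edgeR adjusted p = 0.0101) and -2.57 for TEX15 (edgeR adjusted p = 0.00683). It was 5.83 for GADD45B (edgeR adjusted p = 3.11e-05), whose WT NPC-P4 samples held 1 count each, so that the fitted size depends on the prior count. Cell type markers moved beside these differences. The summed CPM of the neuron markers was 1393 and 1212 in WT NPCs and 4612 and 5189 in WT NPC-P4, against 1094 and 1020 in dKO NPCs and 880 and 908 in dKO NPC-P4. That of the pluripotency genes went from 132 and 120.2 to 1.65 and 1.27 in WT and from 108 and 95.3 to 41.5 and 45.4 in dKO NPCs. At day 28 these 2 sums and that of the S phase list differed between the genotypes as well, and the part of none of them was tested.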

How the results depend on the processing

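Of 1160 recomputed fold changes of the 10 genes, 1067 moved by less than the SE of the main fold change and 93 by that much or more. Of those called in the main fit, 0 changed sign. The number of genes called between WT-D28 cells and WT NPCs was 7, and 4 when every gene counted at least once was kept, where DNMT1, CDCA7 and TET1 fell just short of 2-fold (-0.92, -0.97 and -0.95). For the interaction of genotype and passage, leaving out 1 sample gave 1 to 2 genes. All other counts of called members stayed within 1.5 times under the alternatives run. For the listed pathway genes that are not members, the count for the day 28 interaction was 6, and 3 without dKO-D28 replicate 2. The sole passage 2 call, GADD45B, was lost with adjusted p, and GADD45B fell out of the test with at least 10 counts in every sample. In the replicate block fit the count of called members was 7 for WT-D28 against WT NPCs, 5 for the genotypes at day 28 and 6 for the day 28 interaction, as without the block, and the block changed no other count. The shallow passage 2 libraries and the unlike dKO-D28 pair limit the precision of each comparison that uses them.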
